A study of Mus musculus with 191 samples.

Results

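The genes of the cornified envelope were followed in mouse ear skin across 3 genotypes and around the day. Members were found by symbol: every gene named Sprr or Lce with a digit, plus Flg, Flg2, Hrnr, Rptn, Tchh, Tchhl1, Lor, Ivl, Tgm1, Tgm3, Tgm5, Crnn, Cnfn and Cdsn. The annotation holds 52 such genes, 46 of them had a row in the skin table, and 42 had a mean of at least 0.5 normalized counts over the skin libraries. Those 42 are described here, out of 18556 genes in the table. Just inside this limit were Sprr2e, with a mean of 0.73, and Lce3e, with 0.81, and just outside it were Sprr2i, with 0.47, and Sprr2f, with 0.38. Lce3b and Sprr2b were lower still, and Lce3a, Sprr2c-ps, Sprr2g, Sprr2j-ps, Sprr2k and Sprr3 were not analysed here.

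The cornified envelope is the layer of cross-linked protein that replaces the plasma membrane of a keratinocyte as it dies and becomes a flat, dead cell of the skin surface. Involucrin is laid down early, loricrin becomes the bulk of the layer, and small proline-rich proteins (SPRR) and late cornified envelope proteins (LCE) are built into it by transglutaminases. Filaggrin and its relatives pack keratin filaments below it, and corneodesmosin joins neighbouring dead cells. Most of these genes lie side by side in one cluster, the epidermal differentiation complex. SPRR genes are known to rise in wounded, inflamed and proliferating epidermis, while loricrin and filaggrin mark ordinary terminal differentiation.

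RNA was sequenced from whole ear skin taken after perfusion with saline, from 1 mouse per genotype at each Zeitgeber time (ZT, hours after lights on) from ZT 1 to ZT 24. The 16 iDTR mice carried Mrp8CRE, a Cre recombinase under a promoter used for neutrophils, and the inducible diphtheria toxin (DT) receptor iDTR. They received 10 µg of DT per kg on 2 days, and skin was collected on the day after. The 15 Bmal1-flox mice carried Mrp8CRE and a floxed Bmal1, the clock gene also called Arntl, were given no treatment per the labels, and had no library at ZT 16. The 16 control mice were labelled wild type C57BL/6 and given DT. Control and iDTR mice therefore shared DT, and iDTR and Bmal1-flox mice shared the Cre. In Bmal1-flox against control and in iDTR against Bmal1-flox the genotype and DT cannot be told apart. The hour of injection was not given in the sources used here, so ZT and hours since DT cannot be told apart either. Per the labels' treatment protocol some mice lived in cabinets with an inverted light cycle, and which skin donors did is not stated, so cabinet and ZT cannot be told apart.

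Depth was 11.3 to 25.4 M reads in iDTR, 7.68 to 23.9 M reads in Bmal1-flox and 10.3 to 17.6 M reads in control libraries. Gt(ROSA)26Sor, a transcript of the locus into which the DT receptor is usually inserted, was between 0.24 and 1.53 in iDTR, between 21.0 and 30.2 in Bmal1-flox and between 0.22 and 1.83 in the libraries labelled wild type. This goes against the wild-type label, so control below means the mice so labelled. Of 12 neutrophil markers, 9 had a row in the skin table and 6 reached the mean of 0.5 and were tested. Of these 6, 5 were higher and 1 was lower in iDTR than in control skin (limma), where 28.6% of all genes were higher and 30.9% lower. The 9 summed to 77.1 to 184 in iDTR and 80.0 to 130 in control, and neutrophil numbers were not measured here. S100a8, abundant in neutrophils and also made by stressed keratinocytes, had medians of 8.19 in iDTR, 3.98 in Bmal1-flox and 4.08 in control skin. Keratinocyte markers were high in every library, with Krt5 at 6626 or more in iDTR, 4702 or more in Bmal1-flox and 4645 or more in control, and Krt10 at 7759.6 or more in all 47. All levels are the authors' normalized counts, on a linear scale and relative to the size of each library. P-values measure the spread between single mice around a fitted 24 h wave. With 1 mouse per genotype and time, this spread includes any other change over the day.

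Levels among the members spanned more than 3 orders of magnitude per kilobase of exon. Lor, for loricrin, was the highest at 2229 normalized counts per kilobase, averaged over all skin libraries. Next came Lce1a1 with 441, Lce1m with 419.7 and Lce1a2 with 305. Cdsn had 198, Hrnr 124, Flg2 73.7 and Flg 22.3, the last 3 being very long transcripts. Among the transglutaminases, Tgm1 had 32.1, Tgm3 20.3 and Tgm5 8.89. Sprr2a2 had 106 and Sprr1a 93.7, averages over unlike genotypes. Before division by length, Sprr2a2 had means of 812 in iDTR, 53.0 in Bmal1-flox and 40.1 in control skin. At the low end were Tchhl1 with 0.68 and Crnn with 0.62. The sum of all 42 members was 7730 to 13073 in iDTR, with a median of 10559, against 7958 to 14057 in control, with a median of 10445. Bmal1-flox skin had 9311 to 13932, with a median of 11758. The ranges of these totals overlapped widely. SPRR2 transcripts were a median of 5.71% of the total in iDTR, 0.55% in Bmal1-flox and 0.49% in control skin, and LCE1 transcripts were 18.8% in iDTR, 22.4% in Bmal1-flox and 21.2% in control skin.

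Comparison of iDTR with control asked how the envelope genes differed where DT was given to mice with and without the Cre-driven receptor. SPRR genes were higher in iDTR skin: 8 of 9 rose, led by Sprr2a2 with 812 ± 557 normalized counts in iDTR and 40.1 ± 27.3 in control skin (SD, n = 16 each). The LCE1 genes, further along the same cluster, had negative differences in 14 of 14 cases, and 6 fell. Loricrin fell slightly, and of the 3 transglutaminases Tgm5 and Tgm3 fell while Tgm1 rose. Over the 42 members, 20 passed an adjusted p of 0.05 in limma, 10 of them higher and 10 lower. Over all 17551 genes tested, 59.5% passed, 28.6% higher and 30.9% lower, so the members' share of 47.6% was not above the background. The median log2 difference was -0.07 over the members and -0.02 over all genes. At least 2-fold rises were found for 6 members, or 14.3%, against 1.67% of all genes, and 2-fold falls for 0 members, against 1.7% of all genes.

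**Figure D1:**
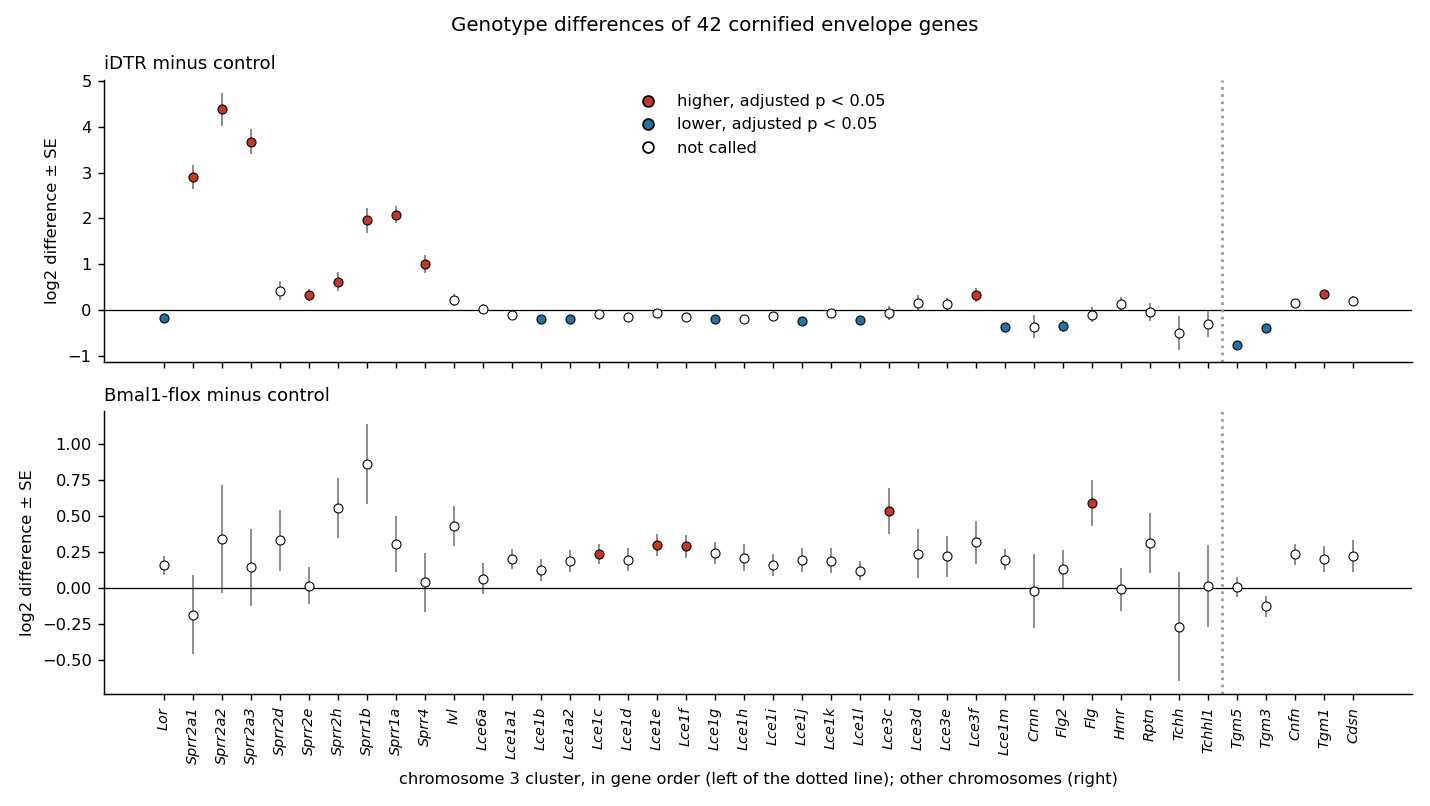
Log2 difference with its standard error for each of the 42 members, for iDTR minus control (top) and Bmal1-flox minus control (bottom), in gene order along the chromosome 3 cluster and then on other chromosomes. Red and blue points passed an adjusted p of 0.05. In the top panel Sprr2a1, Sprr2a2, Sprr2a3, Sprr1a, Sprr1b and Sprr4 stand out, up to 4.38 for Sprr2a2. The Lce1 genes lie between -0.37 and -0.06. In the bottom panel 37 of 42 points are above 0, none beyond 0.86.

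Sprr2a1, Sprr2a2 and Sprr2a3 encode nearly the same small proline-rich protein. Sprr2a2 was between 222 and 2243 in iDTR, with a median of 634, against 7.12 to 95.1 in control, with a median of 43.0. The lowest iDTR library was above the highest control library, which held for 3 members (7.14%) and for 4.26% of all genes. Its log2 difference was 4.38 ± 0.37 (SE), a 20.8-fold rise on the log2(value + 1) scale, with an adjusted p of 1.64e-14 in limma. This was the third largest positive difference of the 17551 genes, and iDTR was higher at 16 of 16 times. Bmal1-flox skin had 11.2 to 194 normalized counts of Sprr2a2, with a median of 41.7.

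Sprr2a3 was between 7.73 and 93.8 in iDTR, against 0.04 to 4.00 in control, where 1 library had no read assigned to it, again with no overlap, and rose by 3.68 ± 0.26 on the log2 scale (limma, adjusted p 7e-17). Sprr2a1 was between 3.08 and 39.6 in iDTR, against 0.03 to 4.58 in control, where 7 of 16 libraries had no read assigned to it, and rose by 2.91 ± 0.27 (limma, adjusted p 3.16e-13). Its ranges overlapped. The summed value of the 3 genes was 239 to 2377 in iDTR, with a median of 674, against 8.54 to 100.5 in control, with a median of 44.1, and 11.5 to 200 in Bmal1-flox. The sum is the safer measure, because reads of 50 bases cannot be assigned among these genes with certainty. Of the 50-base windows of their transcripts, 96.3% in Sprr2a1, 96.5% in Sprr2a2 and 61.1% in Sprr2a3 also occur in another gene, and Sprr2a1 and Sprr2a2 overlap by 43 exonic bases. The 300 bases around the start of Sprr2a1 (RefSeq, GRCm38.p6, chr3:92215585-92215884, plus strand) are shown because they are identical, 300 of 300, to those of Sprr2a2, and match Sprr2a3 at 272 of 272 bases when shifted by 28. Capitals would mark the AP-1 motif TGANTCA, a site of the Fos and Jun factors, which was not found in this window:
Sprr2a1: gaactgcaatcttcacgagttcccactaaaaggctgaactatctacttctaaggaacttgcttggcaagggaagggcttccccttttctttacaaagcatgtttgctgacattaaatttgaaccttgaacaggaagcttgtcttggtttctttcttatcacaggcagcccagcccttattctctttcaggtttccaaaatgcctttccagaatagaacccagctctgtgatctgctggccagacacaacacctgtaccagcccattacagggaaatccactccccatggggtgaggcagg

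Sprr1a and Sprr1b encode the SPRR1 proteins, which stress and phorbol esters are known to raise in keratinocytes. Sprr1a was between 82.6 and 253 in iDTR, with a median of 142, against 17.4 to 56.6 in control, with a median of 32.6, and the groups did not overlap. It rose by 2.08 ± 0.19 on the log2 scale, or 4.24-fold (limma, adjusted p 3.32e-13), and was higher in iDTR at 16 of 16 times. Sprr1b was between 18.4 and 89.7 in iDTR, with a median of 60.9, against 3.98 to 40.0 in control, with a median of 10.5. Its ranges overlapped, and it rose by 1.96 ± 0.27, or 3.89-fold (limma, adjusted p 2.04e-08), again at 16 of 16 times. Neither gene shares a 50-base window with another gene, so these values do not carry the ambiguity of the Sprr2a genes.

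Of the other SPRR genes, Sprr4 was low, at 0.28 to 11.4 in iDTR against 0.16 to 2.73 in control, and rose by 1.00 ± 0.20 (limma, adjusted p 2.9e-05). Sprr2h rose by 0.62 ± 0.20 (limma, adjusted p 0.0082), with means of 7.29 in iDTR and 4.62 in control. Sprr2e, near the lower limit of detection with means of 0.99 in iDTR and 0.58 in control, rose by 0.32 (limma, adjusted p 0.0224), a call lost under 3 of the alternatives. Sprr2d had means of 3.99 in iDTR and 2.70 in control and did not pass (limma, adjusted p 0.0772). In gene order the rises ran from Sprr2a1 to Sprr4, with Sprr2d not called. Of the members on either side of this block, Lor fell and Ivl did not pass.

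The promoter windows of Sprr1a, Sprr1b and Lor are shown together because the first 2 genes rose and the third fell, and all 3 windows hold the AP-1 motif TGANTCA (capitals, searched on both strands). They cover 250 bases before to 50 after the RefSeq start in GRCm38.p6, at chr3:92485832-92486131, chr3:92438730-92439029 and chr3:92083093-92083392, all on the minus strand and written 5′ to 3′:
Sprr1a: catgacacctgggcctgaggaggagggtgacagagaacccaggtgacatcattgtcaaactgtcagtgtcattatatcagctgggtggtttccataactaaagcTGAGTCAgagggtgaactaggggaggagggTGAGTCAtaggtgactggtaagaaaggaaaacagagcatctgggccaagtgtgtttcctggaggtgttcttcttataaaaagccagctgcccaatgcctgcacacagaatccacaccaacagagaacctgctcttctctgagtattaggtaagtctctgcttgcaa
Sprr1b: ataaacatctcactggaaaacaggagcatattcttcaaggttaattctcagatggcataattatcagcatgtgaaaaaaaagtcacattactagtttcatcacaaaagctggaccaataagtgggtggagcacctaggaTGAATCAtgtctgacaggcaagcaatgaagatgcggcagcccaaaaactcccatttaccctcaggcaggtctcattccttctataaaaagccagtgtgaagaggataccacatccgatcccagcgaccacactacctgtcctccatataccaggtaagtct
Lor: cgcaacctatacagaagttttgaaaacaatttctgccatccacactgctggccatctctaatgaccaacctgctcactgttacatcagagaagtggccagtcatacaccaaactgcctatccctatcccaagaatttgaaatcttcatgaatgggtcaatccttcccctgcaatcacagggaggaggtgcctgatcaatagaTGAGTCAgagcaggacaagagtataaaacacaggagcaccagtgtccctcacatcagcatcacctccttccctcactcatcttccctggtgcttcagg
The motif starts 146 and 116 bases before the start in Sprr1a, 111 before it in Sprr1b and 48 before it in Lor. It is present in any window of 12 of the 41 members with a RefSeq promoter, and in 7.81% of all 32851 promoter windows. Members were counted by gene and the background by window, so the shares are not like for like. Of these members, 5 of 9 SPRR genes and 0 of 13 LCE1 genes had it. The windows of Sprr2a1, Sprr2a2, Sprr2a3 and Sprr4, which rose in iDTR against control, did not hold it. The clock's E-box, CACGTG, was in the windows of 0 of the 41 members and in 7.15% of all windows. These matches describe letters in a window of fixed length, and no binding was measured. Of genes for AP-1 subunits in a list of differentiation regulators, Fosl1 had 17.5 ± 8.10 in iDTR and 5.02 ± 2.21 in control, and rose 2.95-fold (limma, adjusted p 2.45e-09). Junb had 435 ± 182 in iDTR and 168 ± 52.1 in control, and rose 2.48-fold (limma, adjusted p 1.37e-08). The part of Fosl1 and Junb in the members' values was not tested.

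**Figure D2:**
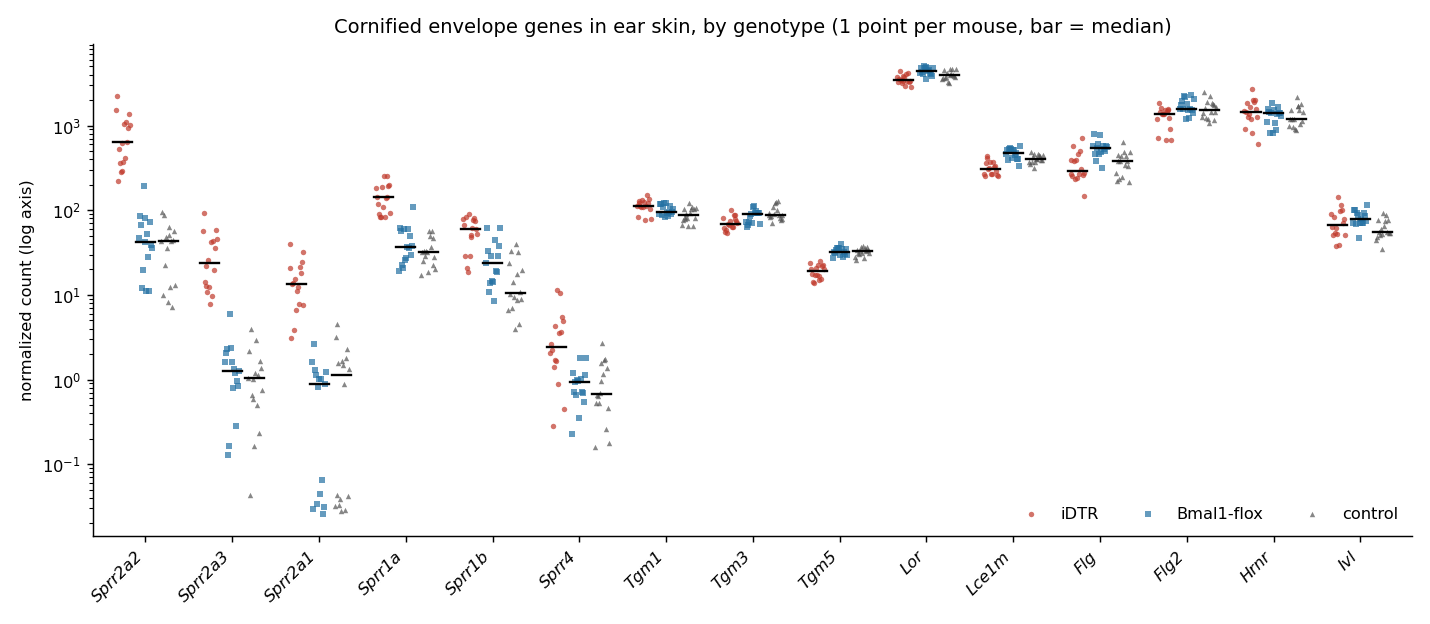
Normalized counts (log axis) of 15 members in each mouse, with 16 iDTR (red circles), 15 Bmal1-flox (blue squares) and 16 control (grey triangles) libraries, and bars at the medians. Sprr2a2 lies at 222 and above in iDTR, above every control value, Tgm5 lies below every control value, and the lowest points of Sprr2a1 are libraries with no read assigned to it.

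Lor encodes loricrin, the main protein of the mature envelope. It was between 2872 and 4479 in iDTR, with a median of 3415, against 3166 to 4716 in control, with a median of 3950.5. The ranges overlapped almost fully. Lor fell by 0.17 ± 0.06 on the log2 scale in iDTR (limma, adjusted p 0.0239), and under quantile normalization the difference was -0.03 and not called. The 14 LCE1 genes, which encode cysteine-rich proteins added late, summed to 1519 to 2863 in iDTR, with a median of 1908, against 1786 to 2783 in control, with a median of 2202. Of the 14, 6 fell: Lce1m, Lce1j, Lce1l, Lce1g, Lce1a2 and Lce1b. The count was 11 of 14 under quantile normalization, where about 4990 of all 17551 genes fell. It was 10 of 14 under 75th percentile scaling, where about 6020 of all genes fell, against 5424 in the main fit. The calls of Lce1b and Lce1g were lost in 14 and 4 alternatives. Lce1m was between 252 and 443 in iDTR, with a median of 311, against 313 to 483 in control, with a median of 405. It fell by 0.37 ± 0.07 (limma, adjusted p 2.78e-05), was lower at 15 of 16 times, and shares no 50-base window with another gene. The other falls were between -0.23 and -0.19, and the 8 genes not called lay between -0.20 and -0.06.

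The LCE1 genes are not independent measurements. Between 9.12% and 27.1% of the 50-base windows of the other 13 also occur in another gene, and the 91 pairs had a median correlation of 0.88 over the 47 libraries after each genotype's mean was removed. Lor correlated with them at a median of 0.70. The 3 Sprr2a genes correlated with each other at a median of 0.51, and with the LCE1 genes at a median of -0.04. These correlations describe libraries that also differ in depth and tissue composition. Of the other LCE genes, Lce3f rose by 0.33 (limma, adjusted p 0.0494), with means of 1.11 in iDTR and 0.69 in control, a call lost under 36 of 58 alternatives, and Lce3c, Lce3d, Lce3e and Lce6a did not pass. The LCE3 genes share 35.7% to 49.3% of their windows with other genes, so reads among them could be split differently.

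Filaggrin and its relatives, the S100-fused proteins, gave 1 call in 7 members, Flg2, between iDTR and control. Of all genes 59.5% passed in this comparison, and 30.9% were lower. Flg, for profilaggrin, was between 147 and 712 in iDTR, with a median of 293, against 213 to 643 in control, with a median of 381, and did not pass (log2 difference -0.10 ± 0.16, limma adjusted p 0.604). Hrnr, for hornerin, averaged 1504 ± 523 in iDTR and 1338 ± 376 in control (SD, n = 16 each) and did not pass either (limma, adjusted p 0.459). Flg2 was between 675 and 1837 in iDTR against 1073 to 2518 in control, and fell by 0.34 ± 0.13 (limma, adjusted p 0.023), a call that left the threshold without iDTR replicate 8, 14 or 16, where the adjusted p reached 0.0514. Rptn, for repetin, had means of 9.02 in iDTR and 8.54 in control and did not pass (limma, adjusted p 0.88). All 3 of these large genes, Flg, Flg2 and Hrnr, varied together within genotypes, at a median correlation of 0.67 over 47 libraries.

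Tchh, for trichohyalin, and Tchhl1 belong to the same family but trichohyalin is made mainly in the inner root sheath of the hair follicle. Tchh was between 14.7 and 74.999 in iDTR, with a median of 26.8, against 13.5 to 346 in control, with a median of 35.8, and 11.2 to 419 in Bmal1-flox, with a median of 20.4. A single library set the top of each of the last ranges. Bmal1-flox replicate 14, taken at ZT 24, had 419 of Tchh, 15.9 of Tchhl1 and 12.2 of Crnn. Control replicate 8, taken at ZT 15, had 346 of Tchh, 10.6 of Tchhl1 and 10.2 of Crnn. The same libraries had the highest sums of 11 inner root sheath markers, 929 in the Bmal1-flox and 667 in the control library, where the others lay between 150 and 428. Without these 2 libraries, chosen after the data were seen, Crnn reached at most 1.87 in iDTR, 3.73 in Bmal1-flox and 1.61 in control. The genotype differences of Tchh, Tchhl1 and Crnn did not pass with or without them. In iDTR against control, the log2 difference of Tchh was -0.49 ± 0.37 with them (limma, adjusted p 0.256) and -0.31 ± 0.28 without them (limma, adjusted p 0.342). The 3 genes correlated with each other at 0.90 to 0.92, and with the LCE1 genes at a median of 0.31.

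**Figure D3:**
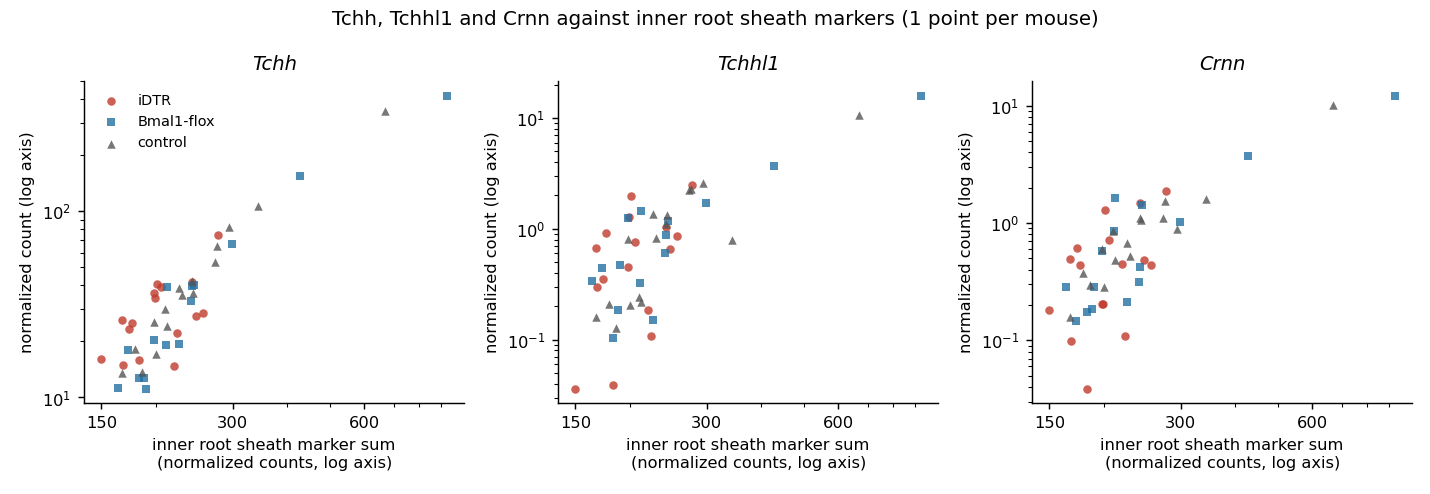
Normalized counts of Tchh, Tchhl1 and Crnn (log axes) against the sum of 11 hair follicle inner root sheath markers, 1 point per mouse. The 2 libraries with sums of 929 (Bmal1-flox) and 667 (control) are highest in all 3 panels, and the iDTR libraries lie between 150 and 278 on the horizontal axis.

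The transglutaminases, which form the cross-links, moved in different directions. Tgm5 was between 13.8 and 24.95 in iDTR, with a median of 18.9, against 25.8 to 37.8 in control, with a median of 33.1. The highest iDTR library was below the lowest control library, which held for 1 member (2.38%) and for 3.33% of all genes. Tgm5 fell by 0.76 ± 0.07 on the log2 scale (limma, adjusted p 1.15e-13), to 0.59 of its control level, and was lower at 16 of 16 times. Tgm3, which also acts in the hair follicle, was between 53.6 and 101 in iDTR against 71.2 to 127 in control, and fell by 0.39 ± 0.07 (limma, adjusted p 5.77e-06), at 15 of 16 times. Tgm1, the main membrane-bound enzyme of envelope assembly, was between 76.4 and 151 in iDTR against 64.5 to 121 in control, and rose by 0.35 ± 0.09 (limma, adjusted p 0.000644), at 14 of 16 times. An antisense gene overlaps 182 exonic bases of Tgm1, and the library kit does not mark strand, so its reads cannot be told apart there.

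Ivl, for involucrin, Cdsn, for corneodesmosin, and Cnfn, for cornifelin, had positive differences that did not pass. Ivl averaged 74.3 ± 29.1 in iDTR and 61.5 ± 16.2 in control (limma, adjusted p 0.174). Cdsn averaged 558 ± 150 in iDTR and 482 ± 107 in control (limma, adjusted p 0.126). Cnfn averaged 90.4 ± 13.0 in iDTR and 81.7 ± 17.4 in control (limma, adjusted p 0.057).

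Other genes were read from lists that the members are not part of, chosen with earlier results of these data known. For comparison, 28.6% of all tested genes were higher and 30.9% lower in iDTR against control. Of 19 tested keratinocyte genes known from wounds and stress, 15 rose in iDTR against control and 0 fell, with a median log2 difference of 1.78. Krt6a, a keratin induced in wounded epidermis and also found in hair follicles, had 1584 ± 403 in iDTR and 108 ± 34.9 in control. Krt16, its partner, had 648 ± 263 in iDTR and 47.1 ± 33.3 in control. Of 39 tested barrier proteins and lipid enzymes outside the members, 13 rose and 7 fell, with a median of 0.12. The 2 largest changes among them were falls, while the largest positive log2 difference was 1.21. Slc27a4, a fatty acid transporter, had 88.4 ± 9.55 in iDTR and 756 ± 124 in control. Elovl4, which makes very long chain fatty acids, had 333 ± 69.8 in iDTR and 1423 ± 167 in control. In whole skin, epidermal and sebaceous sources of these 2 cannot be told apart. Of 17 other tested genes of the epidermal differentiation complex, 7 rose and 4 fell, with Pglyrp3, a peptidoglycan recognition protein, at 14.7 ± 2.57 in iDTR and 1.66 ± 0.60 in control. Of 24 differentiation regulators, 13 rose and 3 fell.

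The tissue itself differed between iDTR and control skin, and in whole skin fewer cells of a type and less RNA per cell cannot be told apart. The marker counts stand beside 28.6% of all genes higher and 30.9% lower in iDTR. Of 12 sebaceous gland markers, 12 fell, and their sum was 585 to 1320 in iDTR against 8027 to 13563 in control. Of 9 tested fibroblast markers, 6 fell and 2 rose, with sums of 2142 to 6926 in iDTR against 6725 to 16413 in control. Basal keratinocyte markers summed to 17462 to 28473 in iDTR against 14844 to 18715 in control, with 5 of 10 higher and 3 lower. Suprabasal markers, the cells that make the envelope, summed to 25347 to 52975 in iDTR against 23592 to 49963 in control, with 3 of 10 higher and 1 lower. Per 1000 units of the suprabasal sum, Sprr2a1 to Sprr2a3 together had a median of 16.1 in iDTR and 1.19 in control, and Lor had 89.2 in iDTR and 116 in control. The part of these differences in the members' values was not tested.

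Comparison of Bmal1-flox with control set mice with a floxed clock gene and no DT against mice given DT. The members' differences were small and mostly positive. Of the 42 members, 5 rose and 0 fell, or 11.9% higher, where 5.34% of all genes passed and 2.26% were higher. The median log2 difference was 0.20 over the members and -0.00 over all genes, and 37 of 42 members were above 0, as were 49.2% of all genes. These 37 include all 14 LCE1 genes, which vary together and are not separate observations. The 5 that rose were Flg, Lce3c, Lce1c, Lce1e and Lce1f. This count rests on single libraries: leaving out 1 at a time gave between 2 and 11 called members, with 2 without Bmal1-flox replicate 16, 3 without Bmal1-flox replicate 4 or 6 or control replicate 3 or 5, 8 without iDTR replicate 2 or Bmal1-flox replicate 2, and 11 without control replicate 7 or 10. The count was 3 without the 2 libraries high in hair follicle genes.

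The ranges of Bmal1-flox and control overlapped for every member, while 0.0741% of all genes were higher and 0.125% lower with no overlap. At least 2-fold rises were found for 0 members and 0.0855% of all genes, and 2-fold falls for 0 members and 0.16% of all genes.

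Flg was between 317 and 787 in Bmal1-flox, with a median of 548, against 213 to 643 in control, with a median of 381, and rose by 0.59 ± 0.16 (limma, adjusted p 0.0191). It was higher at 12 of 15 shared times, and the call held in each of 59 alternatives. Lce3c averaged 6.98 ± 2.36 in Bmal1-flox (n = 15) and 4.62 ± 2.07 in control (n = 16), and rose by 0.53 ± 0.16 (limma, adjusted p 0.0335). The Lce3c call was lost in 12 alternatives, among them the replicate block (limma, adjusted p 0.0663) and the fit without the 2 libraries high in hair follicle genes (limma, adjusted p 0.0793). Lce1e averaged 86.2 ± 13.3 in Bmal1-flox and 70.2 ± 11.004 in control and rose by 0.30 ± 0.07 (limma, adjusted p 0.00925). Lce1f and Lce1c rose by 0.29 and 0.23, calls lost in 2 alternatives for Lce1f and 11 for Lce1c. All 14 LCE1 genes had positive differences, between 0.12 and 0.30, and the other 11 did not pass. Several members lay just above the threshold in limma: Cnfn at an adjusted p of 0.052, Sprr1b at 0.0552 with 28.0 ± 16.9 in Bmal1-flox and 15.7 ± 11.1 in control, and Ivl at 0.0593.

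Members that stood out in iDTR did not pass in Bmal1-flox against control. Sprr2a2 averaged 53.0 ± 46.2 in Bmal1-flox and 40.1 ± 27.3 in control (limma, adjusted p 0.695). Sprr1a averaged 43.6 ± 23.6 in Bmal1-flox and 33.7 ± 12.7 in control (limma, adjusted p 0.436). Tgm5 averaged 32.8 ± 3.49 in Bmal1-flox and 32.6 ± 3.51 in control, a log2 difference of 0.01 ± 0.07 (limma, adjusted p 0.963). Lor averaged 4412 ± 439 in Bmal1-flox and 3972 ± 484 in control (limma, adjusted p 0.178), Flg2 1735 ± 358 in Bmal1-flox and 1596 ± 405 in control (limma, adjusted p 0.661), and Tgm1 102 ± 13.8 in Bmal1-flox and 89.2 ± 17.3 in control (limma, adjusted p 0.206). Of the lists, 7 of 39 barrier genes outside the members rose and 0 fell, where 2.26% of all genes were higher and 3.08% lower. Among the 7, Klk5, a protease of the surface layer, had 117 ± 14.3 in Bmal1-flox and 87.7 ± 17.8 in control (limma, adjusted p 0.00137). Of the wound and stress genes, 0 of 19 passed. Of 10 suprabasal markers, 1 rose and 0 fell, with a median of 0.24. Of 5 erythroid markers, 2 rose and 0 fell, with a median of 1.44 and sums of 30.0 to 756 in Bmal1-flox against 13.8 to 391.6 in control. Of 6 Schwann cell markers, 0 rose and 3 fell, with sums of 596 to 744 in Bmal1-flox against 591 to 904 in control. The part of these markers in the members' values was not tested.

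Comparison of iDTR with Bmal1-flox, which both carry the Cre, uses the same libraries again and is not independent of the comparisons above. These groups also differ in DT, the DT receptor and the floxed Bmal1, which cannot be told apart here. Of the 42 members, 27 passed, 7 higher and 20 lower, where 58.1% of all genes passed, 28.6% higher and 29.5% lower. The ranges did not overlap for 3 members that were higher, Sprr2a1 to Sprr2a3, against 4.03% of all genes, and for 1 that was lower, Tgm5, against 3.47% of all genes. At least 2-fold rises were found for 5 members, or 11.9%, against 1.65% of all genes, and 2-fold falls for 0 members, against 1.8% of all genes. The 7 that rose were SPRR genes, and 47.6% of the members fell. Lor, Flg, Flg2 and all 14 LCE1 genes were lower in iDTR than in Bmal1-flox. Lor averaged 3539 ± 442 in iDTR and 4412 ± 439 in Bmal1-flox (limma, adjusted p 3.87e-05), and Lce1m 320 ± 59.9 in iDTR and 471 ± 68.0 in Bmal1-flox (limma, adjusted p 8.16e-09), lower at 15 of 15 shared times. Flg averaged 355 ± 146 in iDTR and 542 ± 123 in Bmal1-flox and fell by 0.69 ± 0.16 (limma, adjusted p 0.000264). Sprr2a2 rose by 4.04 ± 0.38 (limma, adjusted p 4.33e-13), Sprr2a3 by 3.54 ± 0.27, Sprr2a1 by 3.09 ± 0.27 and Sprr1a by 1.78 ± 0.20. Sprr1b rose by 1.10 ± 0.28 (limma, adjusted p 0.000603). Tgm5 fell by 0.77 ± 0.07 (limma, adjusted p 1.53e-13) and Tgm3 by 0.26 ± 0.07 (limma, adjusted p 0.00165), and Tgm1 did not pass (limma, adjusted p 0.159).

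Daily rhythms were tested in each genotype with a wave of 24 h. In iDTR skin 3 of the 42 members passed, or 7.14%, where 9.77% of all genes did. In Bmal1-flox skin 0 members passed, where 0.291% of all genes did, and in control skin 0 members, where 0.336% did. At an unadjusted p under 0.05, the members counted 6 in iDTR, or 14.3%, 1 in Bmal1-flox, or 2.38%, and 9 in control, or 21.4%, against 25.1% of all genes in iDTR, 8.28% in Bmal1-flox and 9.56% in control. The count of 3 in iDTR was 1 without iDTR replicate 3 or 10 and 6 without iDTR replicate 8, and the count of 0 in Bmal1-flox was 1 without iDTR replicate 7. Rptn peaked at ZT 17.4 in iDTR, with a peak 2.78 times its trough (limma, adjusted p 0.0254). Its iDTR values were 15.4 to 20.2 at ZT 16, 18 and 19 and 18.9 at ZT 13, and between 2.50 and 9.28 at the other times. Sprr4 peaked at ZT 17.0, with a 2.57-fold wave (limma, adjusted p 0.0442). Its highest iDTR values were 11.4 at ZT 13 and 10.5 at ZT 18, and its lowest was 0.28 at ZT 5. At ZT 15, close to the fitted peak, Sprr4 was only 0.89 in iDTR. The Sprr4 call was lost in 12 of 56 alternatives, among them the fits without iDTR replicate 2, 3, 4, 7, 10, 12, 13 or 15, where the adjusted p in limma was 0.055 to 0.165. The Rptn call was lost in 5 of 57, without iDTR replicate 3, 4, 9, 10 or 11, where it was 0.0521 to 0.0693.

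Sprr2a3 peaked at ZT 23.2 in iDTR, with a 3.93-fold wave (limma, adjusted p 0.0169). Its 4 highest iDTR values were 93.8 at ZT 3, 58.2 at ZT 22, 56.3 at ZT 1 and 45.8 at ZT 24, and the lowest was 7.73 at ZT 13. Away from these times Sprr2a3 was 43.65 at ZT 18 and 42.7 at ZT 15 in iDTR, and at ZT 4 it was 14.3. Sprr2a2, with which it shares sequence, was also highest at ZT 3, with 2243, at ZT 1, with 1523, and at ZT 22, with 1370.0, but did not pass (limma, adjusted p 0.211). The Sprr2a3 call was lost in 1 of 57 alternatives, a pseudocount of 0.1, where the adjusted p was 0.191. In the iDTR libraries at ZT 22, 24, 1 and 3 the fibroblast marker sum was 2142 to 3329, against 3988 to 6926 in the other iDTR libraries, and its part in the Sprr2a values was not tested. Each time is 1 mouse per genotype, so the spread in the test is that around the wave, between mice and times together.

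The LCE1 genes showed no called rhythm. Their fitted peaks lay between ZT 8.06 and 10.2 in iDTR, where the smallest adjusted p in limma was 0.0523, for Lce1l, and between ZT 14.9 and 19.2 in control, where it was 0.442. In the test of the difference in rhythm between iDTR and control, 0 members passed, where 0.0969% of all genes did, and 12 members had an unadjusted p under 0.05, or 28.6%, against 14.5% of all genes. Of these 12, 10 were LCE1 genes, which share sequence and vary together. Between Bmal1-flox and control 0 of the 42 members and 0 of all genes passed in limma. There 3 members, Crnn, Tchh and Tchhl1, had an unadjusted p under 0.05, against 3.75% of all genes, and without the 2 libraries high in hair follicle genes their p values were 0.0771, 0.0807 and 0.204. The core clock itself was rhythmic in skin, with 14 of 19 genes passing in each genotype.

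**Figure D4:**
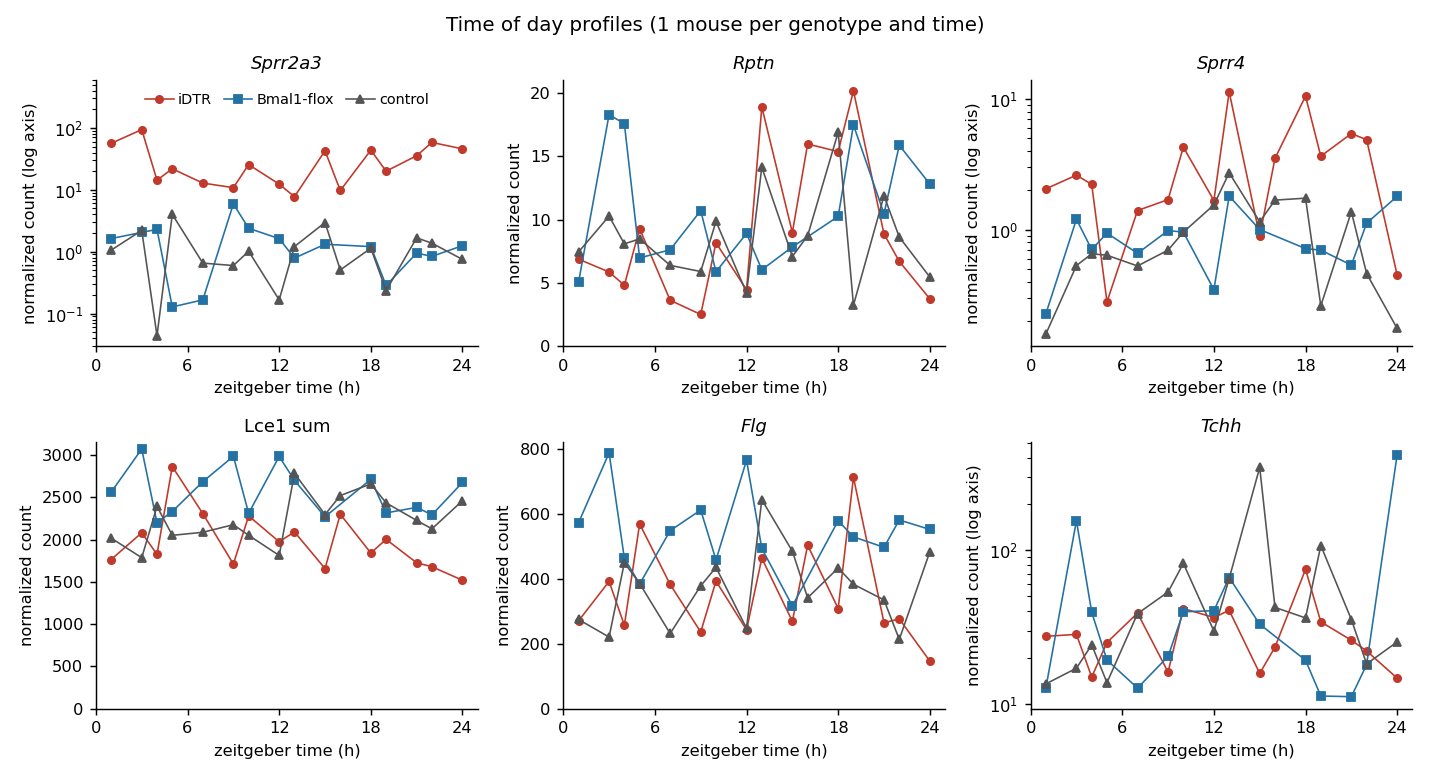
Normalized counts by Zeitgeber time for Sprr2a3, Rptn, Sprr4, the sum of the 14 Lce1 genes, Flg and Tchh, with 1 mouse per genotype and time (iDTR red circles, Bmal1-flox blue squares, control grey triangles; log axes for Sprr2a3, Sprr4 and Tchh). Sprr2a3 in iDTR is lowest at ZT 13 (7.73) and highest at ZT 3 (93.8), and the highest Tchh points are the Bmal1-flox library at ZT 24 (419) and the control library at ZT 15 (346).

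Genes outside the members were correlated with the mean standardised log2 value of 30 members. These 30 had a mean of at least 10, and all 47 skin libraries were used. All 14 LCE1 genes are among the 30, so the mean gives their shared pattern much weight. With the 3 Sprr2a genes the LCE1 genes correlated at a median of -0.04, so the mean is not a pattern of every member. The highest was Asprv1, a protease that processes profilaggrin, at r = 0.94. After it came 2310050C09Rik at 0.92, Sdcbp2 at 0.91, Cysrt1 and Nccrp1 at 0.90, Crct1 at 0.88, Tmem40 at 0.86 and Kprp at 0.86. Crct1, a cysteine-rich protein gene, and Kprp, a keratinocyte proline-rich protein gene, lie in the epidermal differentiation complex. These 47 libraries share genotype, depth and composition differences.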

How the data were processed

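Ear skin RNA was measured in 47 libraries. Per the labels' protocols, the input was 200 ng of RNA and the kit (NEBNext Ultra) does not mark strand, and libraries were read as single reads of 50 nt, trimmed with Cutadapt 1.7.1 and quantified against the GRCm38 transcriptome with RSEM and Kallisto; the submitters' processing notes list limma 3.46 and mm10. What the authors deposited is a linear, already normalized signal, and the normalization and the gene filter are not given in the sources used here. Each column behaved as RSEM expected counts plus 0.5, scaled to a per-million size, since undoing this gave values with at most 2 decimals in 100% of entries. Of the recovered values 42.7% were whole within 0.005 counts, so they are estimated counts and not whole reads, and their totals are the depths given.

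Symbols and coordinates came from GENCODE M21 (75 identifiers unmatched), a later release than the one used for counting. Values were transformed as log2(value + 1), so changes of low genes are understated. The 17551 genes with a mean of at least 0.5 were fitted with limma 3.58.1 in R 4.3.3 with a mean-variance trend and genotype plus a 24 h cosine and sine. Rhythms were F tests of the wave in each genotype, and differential rhythms F tests of its difference. P-values were two-sided and adjusted by Benjamini-Hochberg over all genes, with a threshold of 0.05. Levels are means ± SD and differences ± SE. Per-kilobase levels divide by exonic length. The fit was run on simulated data with the same spread setting for every gene. That run does not show how the fit handles members with a wider spread, such as Sprr2a2.

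Members and lists were chosen with earlier results of these data known. Any member may be named. Values were given for the 6 members with the smallest p in each comparison, the main single-gene members and the most abundant of each family, and for up to 4 genes of a list with the largest change. Replicate numbers and ZT coincide across genotypes. Alternatives covered pseudocounts of 0.1 and 5, no filter or a mean of at least 4, quantile and 75th percentile scaling, array weights, voom weights on the recovered counts, no time term, replicate number as a block, a 12 h wave added, only the 2 genotypes compared, and leaving out each library.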

Additional observations from a re-analysis of the deposited data

How the results depend on the processing

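Leaving out each of the 47 libraries in turn gave 17 to 25 called members in iDTR against control (20 with all), 26 to 27 in iDTR against Bmal1-flox (27), 2 to 11 in Bmal1-flox against control (5), 1 to 6 rhythmic members in iDTR (3), 0 to 1 in Bmal1-flox (0), and 0 in control and for both differential rhythms. Over all genes these counts were 10217 to 10476, 9980 to 10209 and 737 to 1083 for the 3 comparisons in the same order. In Bmal1-flox against control, array weights gave 10 called members, a fit of only the 2 genotypes compared gave 9, and leaving out the 2 libraries high in hair follicle genes gave 3. A pseudocount of 0.1 gave 1 rhythmic member in iDTR, and array weights gave 1 in Bmal1-flox. The causes were not tested. No called member difference changed its direction under any alternative. Under 75th percentile scaling Sprr genes still rose in 8 of 9 cases and Lce1 genes fell in 10 of 14. Over all genes about 4470 rose and 6020 fell under that scaling in iDTR against control.

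Same-numbered libraries of different genotypes share a ZT but not an animal, and their deviations correlated at medians of 0.05, 0.03 and 0.04 for the 3 pairs of genotypes. With the replicate number as a block, 21 members were called in iDTR against control, 6 in Bmal1-flox against control and 27 in iDTR against Bmal1-flox, 10449, 831 and 10170 over all genes, and 0 with a differential rhythm. Members near 1 normalized count, such as Sprr2e and Lce3f, are limited by depth, since 1 read equals 0.04 to 0.13 units.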

Other observations

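The other tissues of the series list few of the envelope genes, and each tissue's table was normalized separately, so levels are not compared across tissues. The gut table lists 9 of the genes found by symbol. Sprr2a2 averaged 7142 ± 1463 after anti-Ly6G and 7126 ± 1467 after IgG (SD, n = 18 each), Sprr2a3 451 ± 126 after anti-Ly6G and 452 ± 125 after IgG, and Sprr2a1 322 ± 110.0 after anti-Ly6G and 324 ± 110.0 after IgG, with the same ambiguity of reads as in skin. Tgm3 averaged 2697 ± 298 after anti-Ly6G and 2869 ± 441 after IgG. Sprr1a averaged 2.97 ± 1.45 after anti-Ly6G and 3.04 ± 1.16 after IgG. In lung, Tchh averaged 10.4 ± 1.24 after anti-Ly6G and 10.7 ± 1.32 after IgG, and Rptn 3.47 ± 1.25 after anti-Ly6G and 3.94 ± 1.195 after IgG. Tgm1 averaged 13.5 ± 6.11 after anti-Ly6G and 14.2 ± 5.71 after IgG in liver. In bone marrow it averaged 7.74 ± 1.52 after anti-Ly6G and 5.97 ± 1.71 after IgG. Anti-Ly6G and IgG were not tested against each other here.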
